A study of Mus musculus with 31 samples.

Results

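Glycolysis splits glucose into pyruvate, and the pentose phosphate pathway diverts glucose 6-phosphate into NADPH and ribose 5-phosphate. The set described here holds the transporters, enzymes and direct regulators of both routes, taken by symbol from a deposited expression table over all 31 libraries of the series. Of 38 listed genes, 37 were in the table (Pkm2 was not, Pkm was) and 34 reached 1 FPKM (fragments per kilobase of gene, scaled to library size) in at least 1 library, out of 24302 symbols in all. Slc2a3, Pgam2 and Fbp1 stayed below 1 FPKM everywhere. The highest value of Slc2a3, just outside that limit, was 0.831 FPKM, and that of Pfkm, just inside it, was 2.20 FPKM.

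The cells were peritoneal macrophages that thioglycollate, an irritant, had drawn into the abdominal cavity of C57BL/6 mice 8.5 weeks old, collected 4 days after the injection of a 3% solution and kept in culture overnight. In one genotype macrophages lacked PPARγ, a nuclear receptor that rosiglitazone activates (knockout, KO), and the other was control, with 4 mice of each. The sources used here do not name the promoter that drives the deletion, or the allele. Cells of each genotype were treated with IL4 at 20 ng/mL, with rosiglitazone at 1 µM or with DMSO, its solvent, for 24 h, or left untreated. There are 4 libraries in each of the 8 groups except KO with rosiglitazone, which has 3. With 4 mice of each genotype for 16 control and 15 KO libraries, libraries of different treatments share mice. The labels do not tie a library to a mouse, and the tests below treat libraries as independent. Libraries carry a replicate number in their titles and a running number in their descriptions. Each number was also tried as a block, and results with these blocks are given at the end.

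In macrophages, glycolysis is known for its rise with inflammatory stimuli, and cells activated with IL4 also take up and burn glucose. Hexokinases commit glucose to the cell, phosphofructokinase is the main control point, PFKFB enzymes set the level of the activator of phosphofructokinase, and lactate dehydrogenase and monocarboxylate transporters dispose of the pyruvate as lactate. Transketolase and transaldolase, the enzymes of the non-oxidative pentose phosphate branch, return sugars to glycolysis. Several of these steps are served by more than 1 gene, with different kinetics or locations of the enzymes.

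Library sums of the deposited FPKM ranged from 150901 to 306000, and 3 libraries (untreated KO 2 and 3 and control IL4 2) lay under 200000, so libraries were rescaled by the median ratio to a common reference, with factors of 0.575 to 1.205. All levels below are rescaled FPKM, which are per gene length, and all differences are on the scale of log2(rescaled FPKM + 1), which understates the change of low genes. Differences are given with their standard error and with p adjusted over 10327 genes by limma, and those with an adjusted p under 0.05 are said to pass. Macrophage markers summed to 991 to 1400 rescaled FPKM in every group, with Cd68 at 629 to 1090 and Csf1r at 69.5 to 218. Of 8 tested macrophage markers, 1 was higher and 2 were lower in KO than in control cells in each of the 4 treatments. Pparg, the deleted gene, had 37.5 to 50.8 rescaled FPKM in untreated KO and 47.1 to 53.4 in untreated control libraries, and 101.4 to 130.1 in KO and 92.4 to 103.1 in control libraries with IL4. A value per gene does not show the loss of single exons. In bulk RNA, fewer cells of a type and less RNA per cell cannot be told apart. Mesothelial and fibroblast markers, 13 genes, summed to 24.2 to 165.1 rescaled FPKM in KO libraries and to 2.86 to 47.8 in control libraries, and this difference moves with every comparison of KO with control cells below. Of the 12 tested, 2 passed for KO against control cells with IL4 and 0 in the other treatments. For IL4 against untreated cells, 3 of the 12 were higher in KO and 2 in control cells, and 0 were lower. Of the 8 macrophage markers, IL4 raised 2 and lowered 3 in KO, and raised 2 and lowered 2 in control cells. Rosiglitazone raised 1 macrophage marker and lowered 1 in control cells. Eosinophil markers, 7 genes with Epx at 0 throughout, had sums between 8.26 and 18.5 rescaled FPKM in KO libraries with IL4, against 28.7 to 57.3 in control libraries with IL4, and of 4.13 to 5.73 in KO libraries with rosiglitazone, against 15.1 to 23.1 in control libraries with it. Their sums were 3.58 to 5.76 in KO and 5.01 to 6.48 in control libraries with DMSO, and 4.34 to 8.30 in untreated KO, against 6.31 to 9.43 in untreated control libraries. Over all 31 libraries Ear2 ranged from 0 to 48.6 rescaled FPKM, Siglecf from 3.32 to 11.8 and Ear1 from 0 to 3.35. Ccr3, Prg2 and Il5ra reached at most 0.266, 0.0526 and 0.0455 rescaled FPKM. Of 3 tested eosinophil markers, 2 were higher with rosiglitazone in control cells, and 2 were lower in KO than in control cells with rosiglitazone. For IL4, 3 were higher in KO and 2 in control cells, and 1 was higher and 2 were lower in KO than in control cells. For the differences of the rosiglitazone and of the IL4 responses, 2 passed in each, both lower. Of all genes, 10.8%, 11.7%, 3.53% and 4.34% passed for KO against control cells with IL4, rosiglitazone, DMSO and no treatment, in that order. For IL4, 19.5% passed in KO and 23% in control cells, and for rosiglitazone 4.46% in control cells. For the differences of the rosiglitazone and of the IL4 responses, 0.804% and 0.697% of all genes passed. Neutrophil markers, 9 genes, summed to 14.8 to 27.7 rescaled FPKM in KO and to 17.2 to 38.1 in control libraries. S100a8 reached 29.4 and Csf3r 19.4 rescaled FPKM. Of the 2 tested, 1 was lower in KO than in control cells without treatment, and 1 with rosiglitazone. With IL4 1 was higher and 1 lower, and with DMSO 0 passed. For IL4 against untreated cells, 1 was lower in KO and 0 passed in control cells. The part of these markers in the results was not tested.

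Aldolase, pyruvate kinase and transaldolase transcripts were the most abundant of the set by mean level. Aldoa, which splits fructose 1,6-bisphosphate, ranged from 365 to 587 rescaled FPKM (median 496), and Pkm, the pyruvate kinase of macrophages, from 187 to 253 rescaled FPKM (median 227). Taldo1, transaldolase, had 142 to 308 rescaled FPKM (median 232). The next 3 were Hk3 with 124 to 184 rescaled FPKM (median 152), Ldha with 92.9 to 269.8 rescaled FPKM (median 148) and Pgam1, a phosphoglycerate mutase, with 80.1 to 120.2 rescaled FPKM (median 99.1). At the low end stood Pfkm, the muscle phosphofructokinase, at 0.996 to 1.82 rescaled FPKM (median 1.31), Eno3, the muscle enolase, at 1.40 to 2.84 rescaled FPKM (median 1.98), and Tigar, a phosphatase that lowers the activator of phosphofructokinase, at 1.48 to 2.52 rescaled FPKM (median 1.96).

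Some of these levels are uncertain because their transcripts resemble others. In a reference annotation (GENCODE M21, of a later genome build than the files), 82.5% of the windows of 50 bases of Gapdh, glyceraldehyde 3-phosphate dehydrogenase, also occur in other genes, and Gapdh was listed at only 9.71 to 19.9 rescaled FPKM (median 15.1). The shared part was 72.2% for Eno1, the main enolase of most tissues, 68.0% for Pgk1, 41.5% for Pgam1, 34.4% for Pkm, 17.1% for Pfkp, 16.7% for Ldha, 13.5% for Aldoa and 10.9% for Taldo1. It was 0 for Slc2a6, Hk2, Hk3, Pfkfb4, Aldoc, Slc16a1, Slc16a3 and Tkt. Eno1 was listed at 3.52e-05 to 3.50 rescaled FPKM (median 0.724) while its near copy Eno1b stood at 29.9 to 59.3 rescaled FPKM, so the enolase reads cannot be assigned between the pair. For Pfkp the other gene is its neighbour Pitrm1, whose group means were 10.2 to 11.4 rescaled FPKM.

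**Figure D1:**
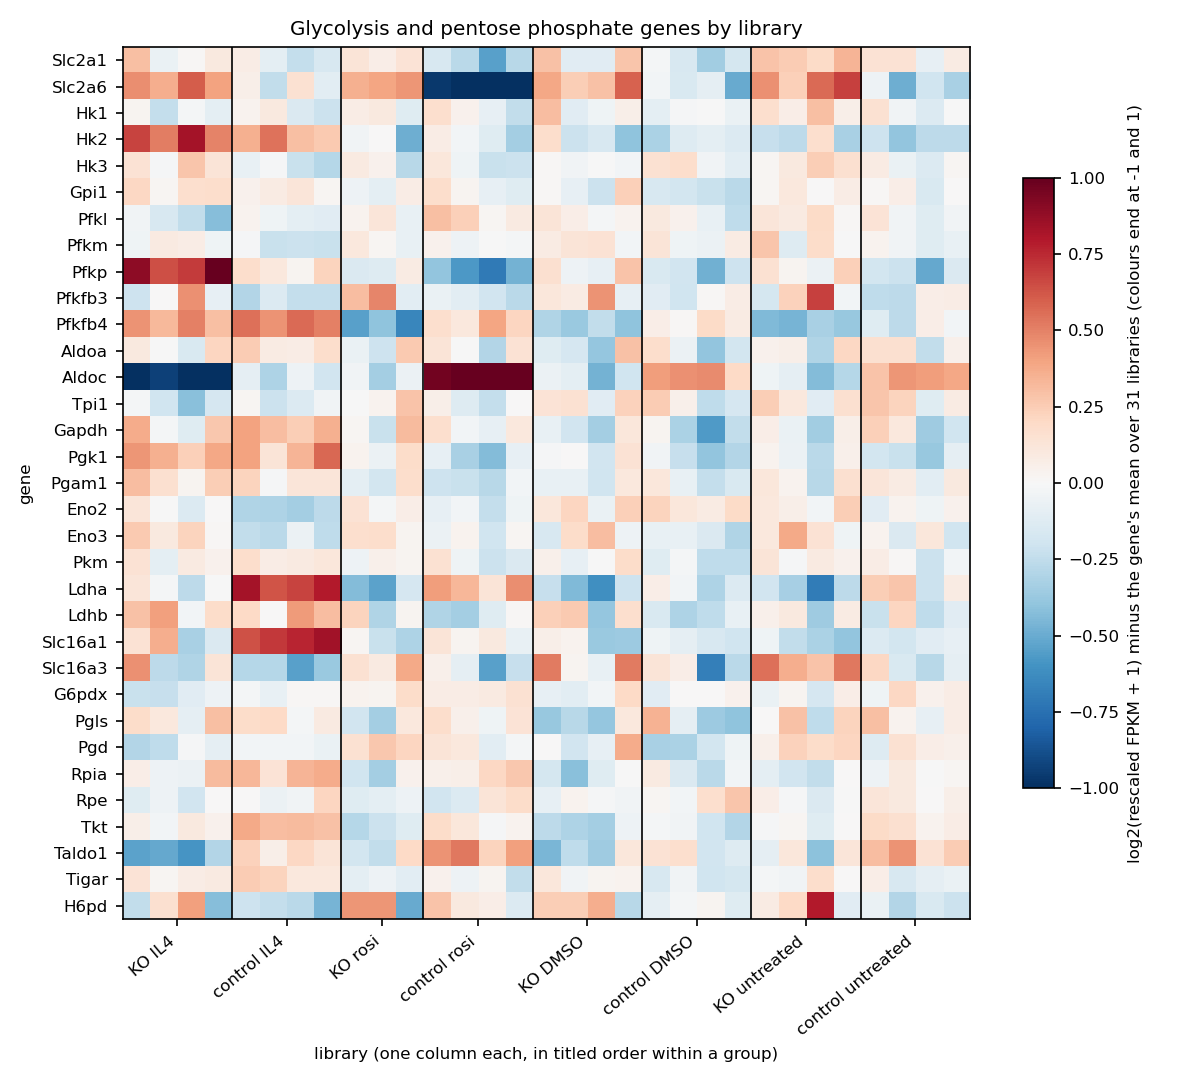
Each row is a gene and each column a library, in groups from KO with IL4 at the left to untreated control cells at the right. Colour gives log2(rescaled FPKM + 1) minus the gene's mean over 31 libraries, and ends at -1 and 1, so larger deviations look the same. Eno1 is left out because of its near copy. Slc2a6 is lowest in control cells with rosiglitazone, Aldoc is lowest in KO cells with IL4 and highest in control cells with rosiglitazone, and Ldha and Slc16a1 are highest in control cells with IL4.

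One gene served most of several steps. Over the 31 libraries, Slc2a1 gave 69.1% and Slc2a6 28.8% of the summed level of the 3 glucose transporters, Hk3 gave 87.7% of the hexokinases, and Pfkp gave 65.7% and Pfkl 30.4% of the phosphofructokinases. Aldoa gave 99.0% of the aldolases and Ldha 95.3% of the lactate dehydrogenases. These shares differed between groups, given here as a description. Pfkp made up 80.0% ± 3.01 of phosphofructokinase in KO and 69.6% ± 1.57 in control cells with IL4, and 65.85% ± 3.27 in KO and 62.1% ± 2.12 in control cells without treatment (SD, n = 4 each). Slc16a1 made up 38.1% ± 8.22 of the monocarboxylate transporters in KO and 59.3% ± 3.45 in control cells with IL4, against 26.3% ± 2.46 in KO and 36.9% ± 3.79 in control cells without treatment (SD, n = 4 each).

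**Figure D2:**
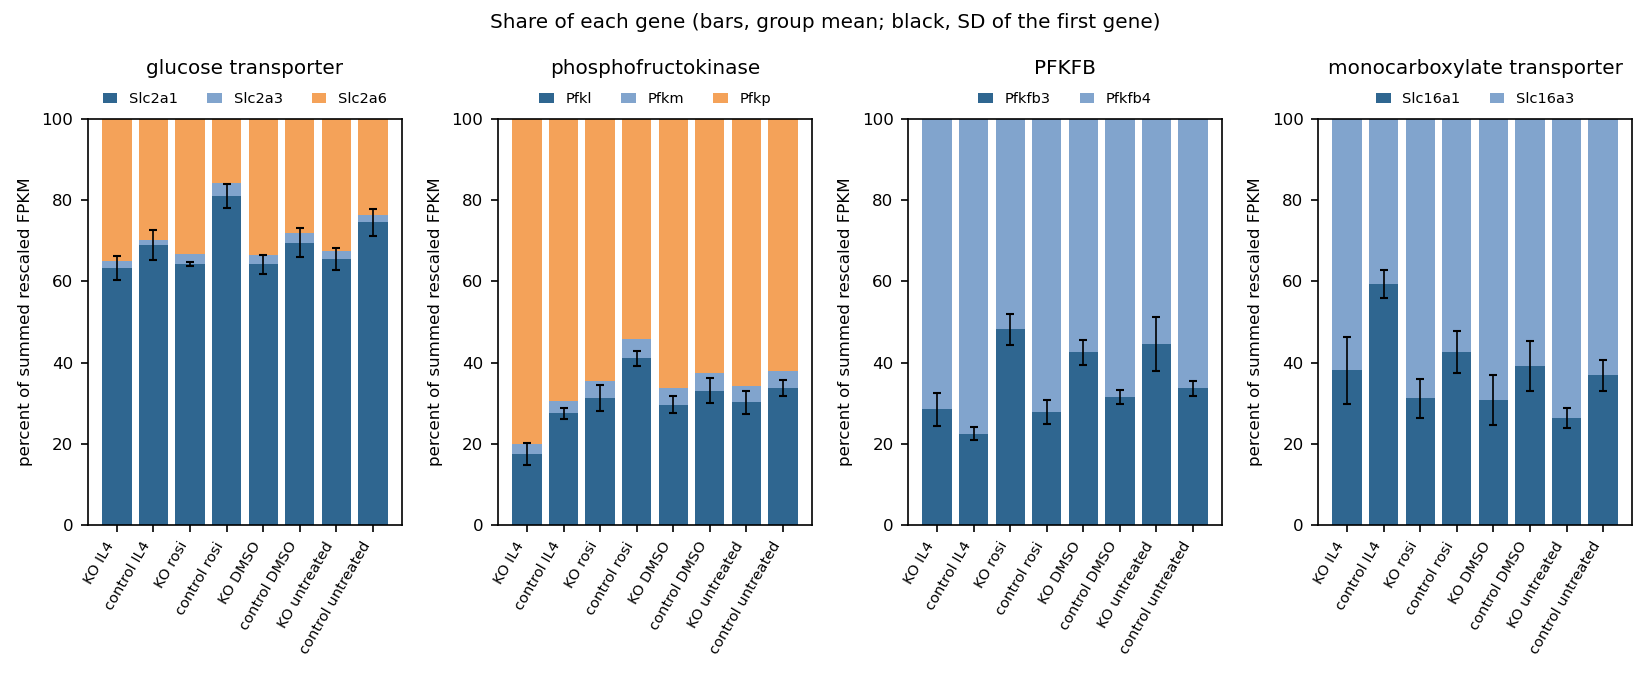
Bars stack the mean share of each gene, in percent, of the summed rescaled FPKM of its step in each group, and black bars give the SD of the first gene over 3 or 4 libraries. Slc2a6 takes 15.8% in control cells with rosiglitazone and 23.6% to 35.1% in the other groups, and Slc16a1 takes 59.3% in control cells with IL4 and 26.3% to 42.6% elsewhere.

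IL4 raised Hk2, Pfkp, Pfkfb4 and Pgk1 in both genotypes, with log2 differences of 0.42 to 0.80 in KO and of 0.40 to 0.64 in control cells, and lowered Aldoc in both. In control cells it also raised Ldha, the lactate transporter Slc16a1, Rpia, Tkt and Tigar and lowered Eno2, and in KO cells it lowered Pfkl, Pgd and Taldo1. In KO cells 8 of 34 members passed for IL4 against untreated cells (23.5%), 4 higher and 4 lower, where 19.5% of all genes tested passed (10.1% higher and 9.38% lower). Without the 3 libraries of low sum 5 passed in KO cells, 3 higher and 2 lower, and Pfkl, Pgk1 and Pgd did not. The share of all genes that passed without these libraries is not given here. In control cells 11 passed (32.4%), 9 higher and 2 lower, against a background of 23% (11.9% higher and 11.1% lower). The median difference of the members was 0.00 in KO and 0.05 in control cells, and that of all genes was 0.01 in KO and 0.00 in control cells. For the difference between the IL4 responses of KO and control cells, 0 of 34 members passed by limma. Of all genes, 0.697% passed (0.252% higher and 0.445% lower). By limma, 4 members had an unadjusted p under 0.05 (Pfkl, Pfkp, Aldoc and Slc16a1), and the share of all genes at that threshold was not taken. Without KO IL4 library 2, 1 member passed there, lower. With a block by titled number 1 member passed (0.988% of all genes), and by running number 3 (2.13%).

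KO cells had more Slc2a6 and less Aldoc than control cells in all 4 treatments, with log2 differences of 0.49 to 1.52 for Slc2a6 and of -1.20 to -0.59 for Aldoc. With IL4, 10 of 34 members passed (29.4%), with Slc2a6, Hk3, Pfkp, Eno2 and Eno3 higher and Aldoc, Ldha, Slc16a1, Taldo1 and Tkt lower, where 10.8% of all genes did (5.06% higher and 5.77% lower). With rosiglitazone, 8 passed (23.5%), with Slc2a1, Slc2a6 and Pfkp higher and Pfkfb4, Aldoc, Ldha, Taldo1 and Tkt lower, against 11.7% of all genes (5.05% higher and 6.68% lower). With DMSO, 3 passed (8.82%), Slc2a6 higher and Pfkfb4 and Aldoc lower, against 3.53% (1.34% higher and 2.2% lower). Without treatment, 5 passed (14.7%), Slc2a6 and Pfkp higher and Pfkfb4, Aldoc and Ldha lower, against 4.34% (1.76% higher and 2.58% lower). That last count was 3 without untreated control library 2 or 3, and 2 without the 3 libraries of low sum, where Pfkp, Pfkfb4 and Ldha did not pass (adjusted p = 0.0505, 0.0578 and 0.336). Shares of all genes without those libraries are not given here. Median differences of the members were -0.02 with IL4, 0.01 with rosiglitazone, 0.10 with DMSO and 0.10 without treatment, and those of all genes were 0.01, 0.00, 0.00 and 0.00.

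In control cells rosiglitazone raised Aldoc and Ldha and lowered Slc2a6 and Eno2, with log2 differences from DMSO of 0.66, 0.44, -0.93 and -0.25. In KO cells 0 of 34 members passed by limma, as did 0% of all genes, and 1 member (Pfkfb4) had an unadjusted p under 0.05. In control cells 4 members passed (11.8%), 2 higher and 2 lower, where 4.46% of all genes passed (3.11% higher and 1.36% lower). Without DMSO control library 2 or 4, or rosiglitazone control library 1, 2 or 4, it was 2. The median difference of the members was -0.01 in KO and 0.10 in control cells. For the difference between the rosiglitazone responses of KO and control cells, 1 member passed, Slc2a6, with a positive difference, where 0.804% of all genes did (0.107% higher and 0.697% lower). Without DMSO KO library 3, 2 passed. DMSO against untreated cells gave 0 passing members in either genotype by limma, as for all genes (0%). An unadjusted p under 0.05 was reached there by 2 members in KO and 7 in control cells. The share of all genes with an unadjusted p under 0.05 was not taken, here or for rosiglitazone in KO cells. These comparisons share libraries, so their counts are not independent. Over all 12, 18 members passed at least once and 16 never did, where 35.8% of all genes passed at least once.

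These counts rest on the rescaling. Of the 50 passing gene values, 13 also passed on the deposited FPKM as they stand, where the median difference of all genes was 0.21 for IL4 in KO and -0.10 in control cells, and for KO against control cells 0.12 with IL4, 0.00 with rosiglitazone, 0.11 with DMSO and -0.20 without treatment. The 13 were Aldoc for KO against control cells with IL4, with rosiglitazone and without treatment and for IL4 in both genotypes; Slc2a6 for KO against control cells with rosiglitazone and for rosiglitazone in control cells; Pfkfb4 for KO against control cells with rosiglitazone and for IL4 in KO cells; Pfkp for KO against control cells with IL4 and for IL4 in KO cells; Hk2 for IL4 in KO cells; and Slc16a1 for IL4 in control cells. On the deposited values 1 member was higher and 1 lower for KO against control cells with IL4, 1 higher and 2 lower with rosiglitazone, 0 of either with DMSO, and 0 higher and 1 lower without treatment. Of all genes, 2.82% were then higher and 1.52% lower with IL4, 1.77% and 2.56% with rosiglitazone, 0.62% and 0.552% with DMSO, and 0.145% and 1.52% without treatment. IL4 gave 3 higher and 1 lower member in KO and 1 of each in control cells, where 7.16% of all genes were higher and 1.19% lower in KO, and 2.76% higher and 4.0% lower in control cells. Rosiglitazone in control cells gave 1 lower member, where 0.775% of all genes were higher and 0.107% lower. Where only the libraries compared entered the model, 11 of the 50 did not pass (adjusted p 0.0513 to 0.182). They were Slc2a6 for KO against control cells with DMSO, Hk3 with IL4, Tkt and Taldo1 with rosiglitazone, Pfkp, Pfkfb4 and Ldha without treatment, Pfkl and Taldo1 for IL4 in KO cells, and Eno2 and Ldha for rosiglitazone in control cells. With equal upper quartiles Hk3, Rpia and Tkt lost 1 call each, for KO against control cells with IL4 and for IL4 in control cells (adjusted p 0.0552 to 0.0642).

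The upstream sequences of 4 genes that IL4 raised in control cells are shown with those of 2 members without a match, because they carry the core ACGTG, found both in the binding sequence of hypoxia-inducible factors and in E-boxes that MYC binds. They are the 250 bases before a RefSeq start (GRCm38.p6, a later build than the mm9 of the files), written along the gene's strand in lower case, with ACGTG read on either strand in capitals. Where 2 starts are listed, as for Ldha, the first is given, and the second Ldha window, chr7:46846832-46847081 (plus strand), has 0 matches.
Ldha: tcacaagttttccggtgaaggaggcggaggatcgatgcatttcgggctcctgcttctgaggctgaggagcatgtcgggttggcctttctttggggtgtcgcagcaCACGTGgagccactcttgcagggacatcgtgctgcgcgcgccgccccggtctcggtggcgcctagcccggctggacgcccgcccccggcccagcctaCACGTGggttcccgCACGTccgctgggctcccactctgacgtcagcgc
Hk2: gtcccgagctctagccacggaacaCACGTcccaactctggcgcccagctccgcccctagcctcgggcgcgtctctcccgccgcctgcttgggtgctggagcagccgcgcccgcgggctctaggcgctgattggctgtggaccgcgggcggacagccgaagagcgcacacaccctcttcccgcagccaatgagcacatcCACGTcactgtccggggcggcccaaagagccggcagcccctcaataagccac
Slc16a1: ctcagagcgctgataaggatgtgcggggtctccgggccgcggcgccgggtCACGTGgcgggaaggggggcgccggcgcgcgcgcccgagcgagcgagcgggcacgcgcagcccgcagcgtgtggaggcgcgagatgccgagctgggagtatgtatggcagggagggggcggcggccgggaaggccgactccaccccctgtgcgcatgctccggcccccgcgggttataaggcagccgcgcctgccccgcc
Pgk1: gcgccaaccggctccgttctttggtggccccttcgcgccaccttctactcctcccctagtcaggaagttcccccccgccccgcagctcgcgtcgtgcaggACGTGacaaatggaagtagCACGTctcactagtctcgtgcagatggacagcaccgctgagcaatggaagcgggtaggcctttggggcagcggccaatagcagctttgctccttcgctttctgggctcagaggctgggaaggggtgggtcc
Pfkfb4: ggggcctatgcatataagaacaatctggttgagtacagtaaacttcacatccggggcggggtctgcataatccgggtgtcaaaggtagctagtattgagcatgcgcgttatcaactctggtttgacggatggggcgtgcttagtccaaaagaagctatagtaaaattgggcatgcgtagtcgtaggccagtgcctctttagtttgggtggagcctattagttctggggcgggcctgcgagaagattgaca
Slc2a6: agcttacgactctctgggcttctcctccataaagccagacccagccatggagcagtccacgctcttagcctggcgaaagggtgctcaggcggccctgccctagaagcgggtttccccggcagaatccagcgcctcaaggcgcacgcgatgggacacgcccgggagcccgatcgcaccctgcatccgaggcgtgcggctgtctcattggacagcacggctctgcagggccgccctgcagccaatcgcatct
The windows are chr7:46845554-46845803 (plus strand) for Ldha, chr6:82774455-82774704 (minus) for Hk2, chr3:104638414-104638663 (plus) for Slc16a1, chrX:106186850-106187099 (plus) for Pgk1, chr9:108991652-108991901 (plus) for Pfkfb4 and chr2:27027999-27028248 (minus) for Slc2a6. The first Ldha window has 5 matches at 3 places, since the palindrome CACGTG counts once on each strand. Slc16a1 likewise has 2 matches at 1 place, and Hk2 and Pgk1 have 2 matches at 2 places each. These windows were chosen after the values were seen. Of the 9 members that rose with IL4 in control cells these 4 have the core and the other 5 (Pfkp, Pfkfb4, Rpia, Tkt and Tigar) do not. Over all tested members, 15 of 47 listed promoters (31.91%) have it, against 16.65% of 32536 mouse promoters of the same length. These promoters belong to 12 of 34 genes, and the share by gene over all genes was not taken. The motif of STAT6, TTC and GAA with 4 bases between them, occurs in 4 of 47 (8.511%, against 5.892% of all), in Gpi1, Hk3, Ldha and Pgd. The perfect DR1 element, AGGTCA repeated with 1 base between, which PPARγ and its partner RXR bind, occurs in 0 of 47 (against 0.03381% of all). Both were searched on both strands, and a match or its lack describes these letters only.

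**Figure D3:**
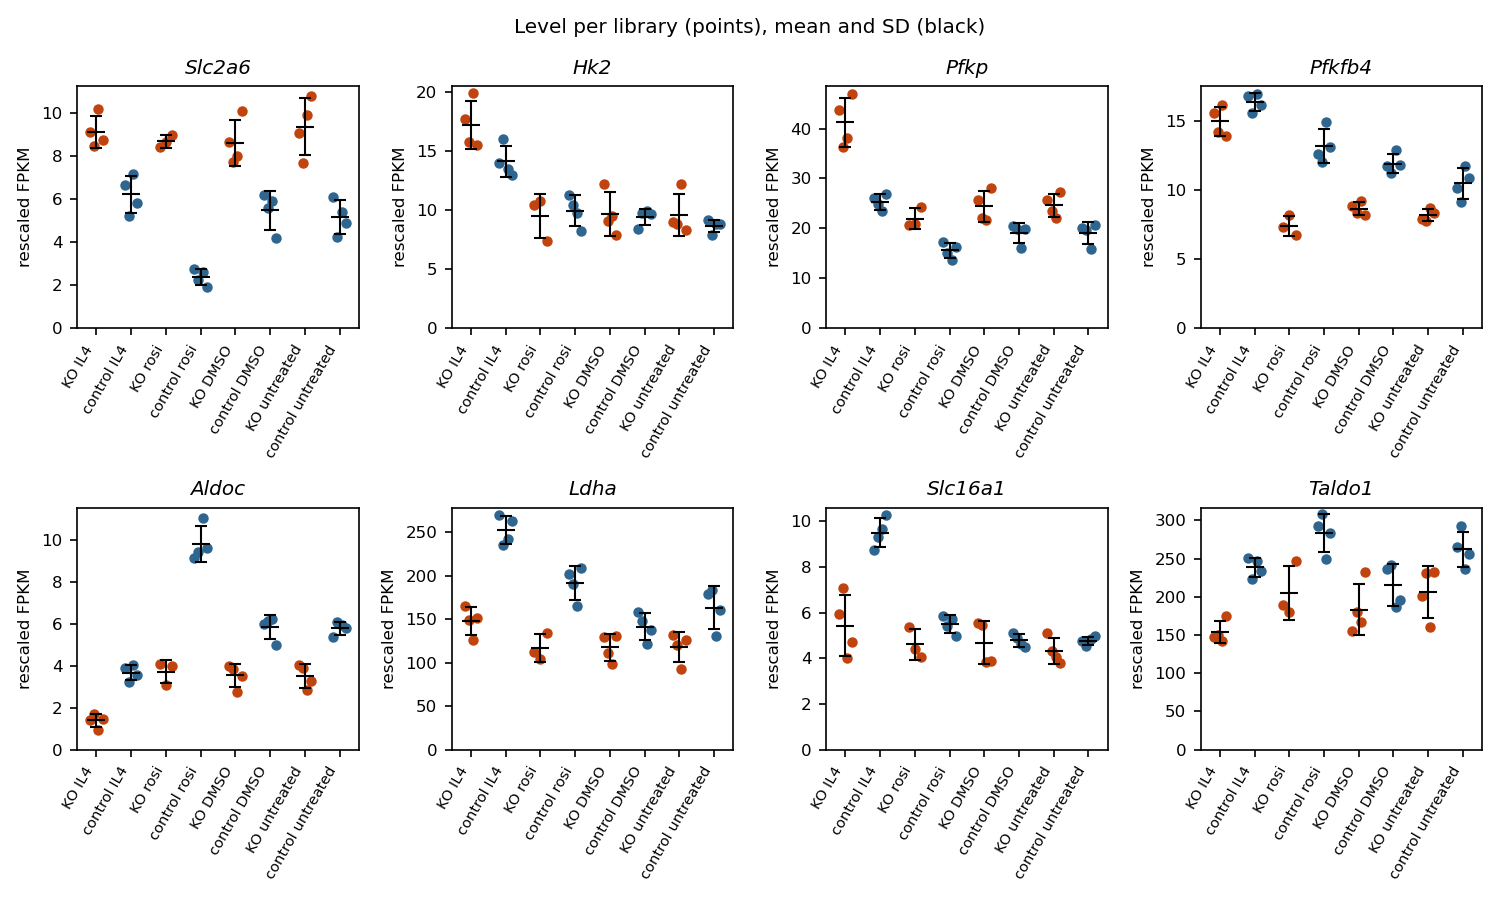
Points give the level of each gene in each library in rescaled FPKM, with KO groups (orange) left of control groups (blue) in each treatment, and black bars the mean and SD of 3 or 4 libraries. KO cells lie above control cells for Slc2a6 and below them for Aldoc in every treatment, and all 8 IL4 libraries lie above the other 23 for Hk2.

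Glucose enters through facilitative transporters. Slc2a6 encodes GLUT6, a member of the family that carries a lysosomal targeting signal. For Slc2a6, the KO libraries with IL4 gave 9.14, 8.48, 10.2 and 8.74 and the control libraries 6.67, 5.22, 7.17 and 5.84 rescaled FPKM. With rosiglitazone, Slc2a6 reached 8.41, 8.65 and 9.00 rescaled FPKM in KO macrophages, against 2.77, 2.23, 2.62 and 1.90 in control macrophages. KO and control libraries do not overlap in either treatment, and the 4 control libraries with rosiglitazone lie below all the other 27. Slc2a6 was at 8.64, 7.73, 8.01 and 10.1 rescaled FPKM in KO and at 6.21, 5.60, 5.90 and 4.20 in control macrophages with DMSO. Without treatment, Slc2a6 had 9.09, 7.69, 9.91 and 10.8 rescaled FPKM in KO libraries and 6.12, 4.25, 5.40 and 4.88 in control libraries. Again no KO library overlaps a control library. The log2 difference between KO and control cells was 0.49 ± 0.11, adjusted p = 0.00389 with IL4 and 1.52 ± 0.12, adjusted p = 3.8e-10 with rosiglitazone, which is 2.88-fold in rescaled FPKM + 1. It was 0.58 ± 0.11, adjusted p = 0.0022 with DMSO and 0.75 ± 0.11, adjusted p = 7.6e-05 without treatment. Rosiglitazone lowered Slc2a6 in control cells, with a log2 difference from DMSO of -0.93 ± 0.11, adjusted p = 2.54e-06, against 0.02 ± 0.12, adjusted p = 1 in KO cells. The responses differed by 0.95 ± 0.17, adjusted p = 0.0017.

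Slc2a1 encodes GLUT1, the main glucose carrier of most cells, and ranged from 10.3 to 19.8 rescaled FPKM (median 15.6). It passed for KO against control cells with rosiglitazone, where libraries were 17.0, 16.2 and 17.1 rescaled FPKM in KO and 13.7, 12.6, 10.3 and 12.6 in control cells without overlap (0.42 ± 0.11, adjusted p = 0.00818). The log2 differences in the other treatments, 0.19 with IL4, 0.26 with DMSO and 0.19 without treatment, did not pass.

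Hexokinases trap glucose as glucose 6-phosphate. Hk2, the inducible form that binds mitochondria, responded to IL4. For Hk2, the KO libraries with IL4 gave 17.8, 15.7, 19.9 and 15.5 and the control libraries 14.0, 16.0, 13.4 and 13.0 rescaled FPKM. Without treatment, Hk2 reached 9.00, 8.78, 12.2 and 8.35 rescaled FPKM in KO macrophages, against 9.17, 7.91, 8.78 and 8.79 in control macrophages. All 8 libraries with IL4 lie above the other 23 libraries of the series. Hk2 was at 10.4, 10.7 and 7.36 rescaled FPKM in KO and at 11.3, 10.5, 9.79 and 8.24 in control macrophages with rosiglitazone. With DMSO, Hk2 had 12.2, 9.09, 9.49 and 7.88 rescaled FPKM in KO libraries and 8.42, 9.72, 9.96 and 9.63 in control libraries. KO and control cells overlap in each treatment. IL4 raised Hk2 by a log2 difference of 0.79 ± 0.12, adjusted p = 2.05e-05 in KO and 0.64 ± 0.12, adjusted p = 0.000262 in control cells, 1.73-fold and 1.56-fold in rescaled FPKM + 1. KO and control cells with IL4 differed by 0.27 ± 0.12, adjusted p = 0.196, which did not pass.

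Hk3, a hexokinase found mainly in myeloid cells, was the most abundant of the 3. For Hk3, the KO libraries with IL4 gave 168, 151, 184 and 166 and the control libraries 144, 151, 130.2 and 124 rescaled FPKM. Without treatment, Hk3 reached 154, 163, 181 and 170.2 rescaled FPKM in KO macrophages, against 161, 145, 138 and 154 in control macrophages. The groups overlap narrowly with IL4, and also overlap without treatment. Hk3 was at 162, 157 and 125 rescaled FPKM in KO and at 165, 148, 129.8 and 131 in control macrophages with rosiglitazone. With DMSO, Hk3 had 154, 148, 152 and 149 rescaled FPKM in KO libraries and 169, 172, 148 and 141 in control libraries. Both pairs overlap. KO against control cells with IL4 passed (0.28 ± 0.09, adjusted p = 0.0455), a call that was lost without IL4 KO library 1, 3 or 4 or IL4 control library 1, 3 or 4 (log2 difference 0.24 to 0.31, adjusted p 0.0533 to 0.154). Hk1, the hexokinase of most tissues, ranged from 8.55 to 13.1 rescaled FPKM (median 10.3) and passed in 0 comparisons.

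Glucose 6-phosphate is turned by Gpi1, the isomerase, into the substrate of phosphofructokinase. Gpi1 ranged from 21.9 to 31.5 rescaled FPKM (median 27.0) and passed in 0 comparisons. Pfkp, the platelet form and the main phosphofructokinase here, was higher with IL4 and higher in KO cells. For Pfkp, the KO libraries with IL4 gave 43.6, 36.4, 38.0 and 46.9 and the control libraries 26.1, 24.8, 23.4 and 27.0 rescaled FPKM. Without treatment, Pfkp reached 25.7, 23.4, 22.1 and 27.3 rescaled FPKM in KO macrophages, against 20.1, 19.7, 15.8 and 20.6 in control macrophages. The 4 KO libraries with IL4 lie above all the other 27. Pfkp was at 20.6, 20.9 and 24.3 rescaled FPKM in KO and at 17.2, 15.1, 13.7 and 16.3 in control macrophages with rosiglitazone. With DMSO, Pfkp had 25.8, 22.1, 21.6 and 28.1 rescaled FPKM in KO libraries and 20.5, 19.9, 16.2 and 19.8 in control libraries. KO libraries lie above control libraries in every treatment. The log2 difference between KO and control cells was 0.68 ± 0.10, adjusted p = 2.17e-05 with IL4 and 0.47 ± 0.11, adjusted p = 0.00379 with rosiglitazone. With DMSO, 0.34 ± 0.10, adjusted p = 0.0681 did not pass, and 0.36 ± 0.10, adjusted p = 0.0428 without treatment passed but was lost without untreated KO library 1, 2 or 4 or untreated control library 2 or 3 (log2 difference 0.27 to 0.38, adjusted p 0.0621 to 0.208). IL4 raised Pfkp by 0.72 ± 0.10, adjusted p = 5.67e-06 in KO and by 0.40 ± 0.10, adjusted p = 0.0049 in control cells, and the difference between these responses, 0.32 ± 0.14, adjusted p = 0.882, did not pass. With the titled or the running number as a block, KO against control cells with DMSO passed (limma, adjusted p = 0.0346 and 0.00951). The difference between the IL4 responses passed with the running number alone (adjusted p = 0.0285).

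Pfkl, the liver form, ranged from 7.46 to 13.0 rescaled FPKM (median 10.5) and fell with IL4 in KO cells, with 10.2, 9.22, 8.59 and 7.46 rescaled FPKM with IL4 and 11.4, 11.1, 12.0 and 10.5 without treatment. These libraries do not overlap, and the log2 difference was -0.32 ± 0.08, adjusted p = 0.00625. Without the 3 libraries of low sum, 2 of which are untreated KO libraries, it was -0.28 and did not pass (adjusted p = 0.0788). Pfkm ranged from 0.996 to 1.82 rescaled FPKM (median 1.31) and passed in 0 comparisons.

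PFKFB enzymes make and degrade fructose 2,6-bisphosphate, the activator of phosphofructokinase. Pfkfb4 was the more abundant of the pair and was higher with IL4. For Pfkfb4, the KO libraries with IL4 gave 15.6, 14.2, 16.2 and 14.0 and the control libraries 16.8, 15.6, 17.0 and 16.2 rescaled FPKM. Without treatment, Pfkfb4 reached 7.93, 7.80, 8.71 and 8.35 rescaled FPKM in KO macrophages, against 10.2, 9.12, 11.8 and 10.9 in control macrophages. IL4 libraries lie above untreated libraries in each genotype, and KO and control libraries overlap with IL4 but not without treatment. Pfkfb4 was at 7.34, 8.17 and 6.74 rescaled FPKM in KO and at 12.7, 12.1, 14.9 and 13.1 in control macrophages with rosiglitazone. With DMSO, Pfkfb4 had 8.89, 8.37, 9.24 and 8.18 rescaled FPKM in KO libraries and 11.7, 11.2, 12.9 and 11.8 in control libraries. All KO libraries lie below the control libraries in both of these treatments. The IL4 response was 0.80 ± 0.07, adjusted p = 2.81e-09 in KO and 0.60 ± 0.07, adjusted p = 4.02e-07 in control cells. Pfkfb4 was lower in KO than in control cells with rosiglitazone (-0.75 ± 0.08, adjusted p = 4.04e-08), with DMSO (-0.42 ± 0.07, adjusted p = 0.000451) and without treatment (-0.32 ± 0.07, adjusted p = 0.00855), the last of these lost without untreated control library 3 (log2 difference -0.27, adjusted p 0.0529). With IL4, -0.12 ± 0.07, adjusted p = 0.365 did not pass. Rosiglitazone left no passing difference from DMSO in either genotype, -0.20 ± 0.08 in KO and 0.13 ± 0.07 in control cells. Pfkfb3 ranged from 4.49 to 9.83 rescaled FPKM (median 5.35) and passed in 0 comparisons.

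**Figure D4:**
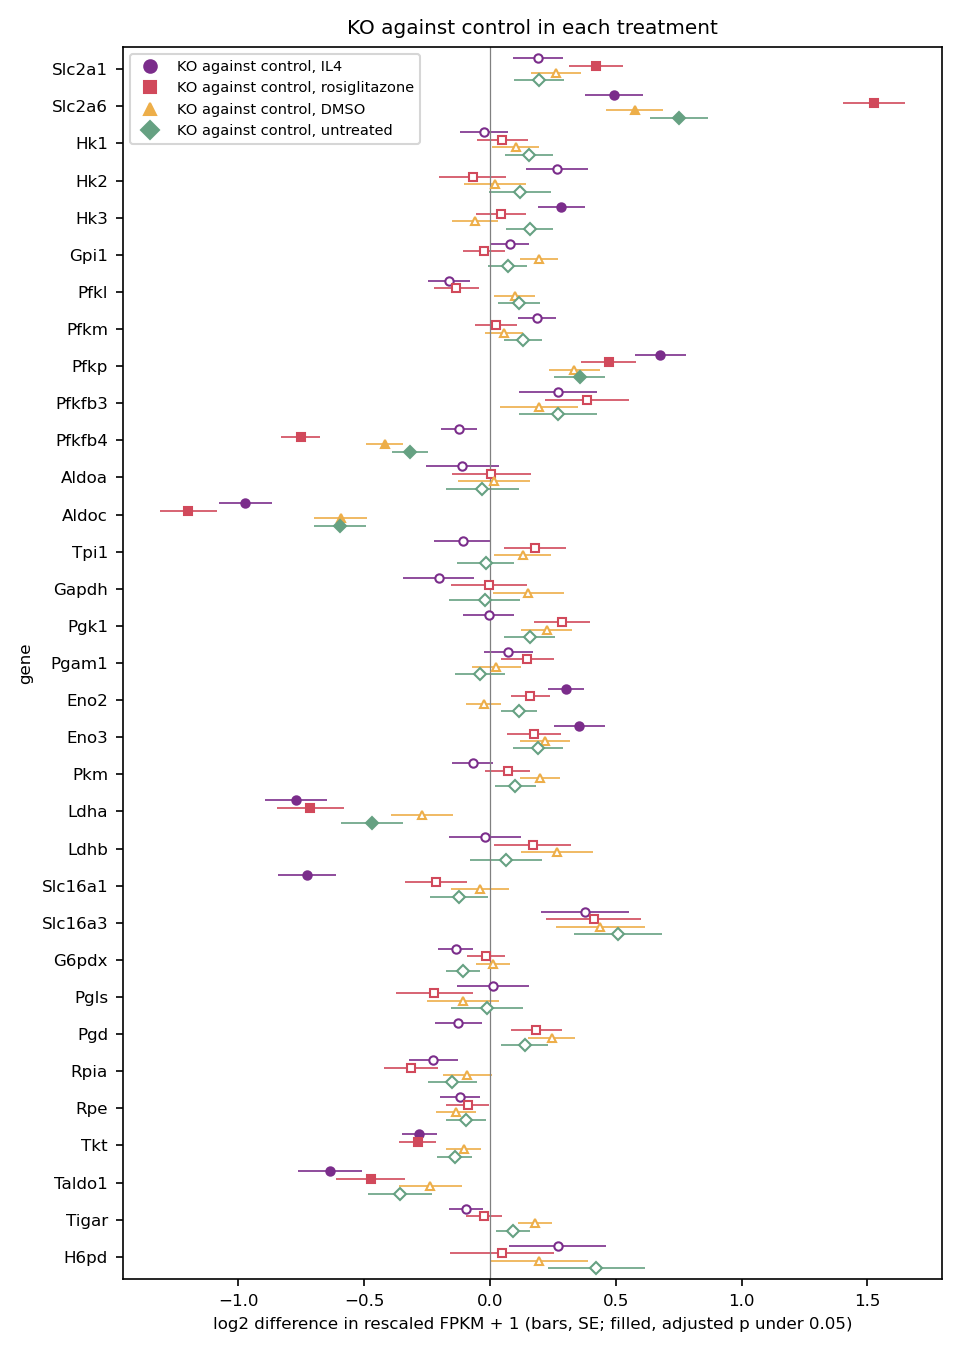
Each gene has 4 points, the log2 difference of KO minus control cells in rescaled FPKM + 1 with IL4, with rosiglitazone, with DMSO and without treatment, from top to bottom, with bars for the SE. Filled points passed at an adjusted p under 0.05, and Eno1 is left out. Slc2a6 lies right of 0 and Aldoc left of 0 in all 4, and Slc2a6 with rosiglitazone is farthest right, at 1.52.

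Aldolases cleave fructose 1,6-bisphosphate into triose phosphates. Aldoc, the brain form, gave a small share of aldolase transcripts but was lower in KO cells in every treatment. For Aldoc, the KO libraries with IL4 gave 1.43, 1.72, 0.955 and 1.47 and the control libraries 3.89, 3.22, 4.04 and 3.55 rescaled FPKM. With rosiglitazone, Aldoc reached 4.07, 3.11 and 3.99 rescaled FPKM in KO macrophages, against 9.14, 9.44, 11.0 and 9.63 in control macrophages. Groups are separate in both, and the 4 KO libraries with IL4 lie below, and the 4 control libraries with rosiglitazone above, all the other 27. Aldoc was at 4.02, 3.87, 2.76 and 3.54 rescaled FPKM in KO and at 5.98, 6.14, 6.24 and 4.99 in control macrophages with DMSO. Without treatment, Aldoc had 4.06, 3.89, 2.85 and 3.28 rescaled FPKM in KO libraries and 5.36, 6.08, 5.95 and 5.82 in control libraries. KO libraries again lie below all control libraries of the same treatment. KO and control cells differed by -0.97 ± 0.11, adjusted p = 9.6e-08 with IL4, by -1.20 ± 0.11, adjusted p = 6.99e-09 with rosiglitazone, by -0.59 ± 0.11, adjusted p = 0.000585 with DMSO and by -0.60 ± 0.11, adjusted p = 0.000475 without treatment. Rosiglitazone raised Aldoc in control cells (0.66 ± 0.11, adjusted p = 0.000137), against 0.06 ± 0.11, adjusted p = 1 in KO cells, and the difference of the responses, -0.60 ± 0.15, adjusted p = 0.0654, did not pass. IL4 lowered it, with a difference of -0.92 ± 0.11, adjusted p = 1.79e-07 in KO and -0.54 ± 0.11, adjusted p = 0.000319 in control cells, and the difference of these responses, -0.38 ± 0.15, adjusted p = 0.677, did not pass either. With the titled or the running number as a block, the difference of the rosiglitazone responses passed (limma, adjusted p = 0.0192 and 0.000601). That of the IL4 responses passed with the running number alone (adjusted p = 0.0309).

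Aldoa, the form of muscle and most other tissues, carried nearly all aldolase transcript and passed in 0 comparisons. For Aldoa, the KO libraries with IL4 gave 513, 478, 432 and 556 and the control libraries 571, 509, 507 and 543 rescaled FPKM. With rosiglitazone, Aldoa reached 459, 417 and 576 rescaled FPKM in KO macrophages, against 524, 478, 392 and 531 in control macrophages. Aldoa was at 441, 427, 366 and 587 rescaled FPKM in KO and at 544, 462, 365 and 423 in control macrophages with DMSO. KO and control libraries overlap in each of these. Without treatment, Aldoa had 496, 499, 389 and 556 rescaled FPKM in KO libraries and 537, 538, 405 and 496 in control libraries. Here too they overlap. Titled library 3 was the lowest of its group for Aldoa in all 7 groups of 4. The same held for Gapdh and Slc16a3, and in 6 of 7 groups for Slc2a1, Pfkp, Tpi1, Pgk1, Pgam1, Eno2, Ldha and Pgls, while it was the highest for Pfkfb4 in all 7. In untreated KO library 3, long genes (at least 4707 bases) deviated from their group by 0.554 more than short ones (at most 2119 bases) on the log2 scale. The part of gene length in these results was not tested.

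From triose phosphates to pyruvate, Pgk1, Eno2 and Eno3 passed in some comparison and Tpi1, Gapdh, Pgam1, Eno1 and Pkm in none. Pgk1, phosphoglycerate kinase, makes ATP and rose with IL4. For Pgk1, the KO libraries with IL4 gave 50.6, 47.7, 43.8 and 48.7 and the control libraries 49.2, 40.6, 47.2 and 55.5 rescaled FPKM. Without treatment, Pgk1 reached 37.9, 35.4, 30.5 and 38.4 rescaled FPKM in KO macrophages, against 32.5, 31.6, 28.2 and 34.6 in control macrophages. IL4 libraries lie above untreated libraries in each genotype, and KO and control cells overlap. Pgk1 was at 37.9, 35.5 and 42.1 rescaled FPKM in KO and at 34.8, 29.3, 27.1 and 34.9 in control macrophages with rosiglitazone. With DMSO, Pgk1 had 36.7, 37.2, 32.2 and 40.9 rescaled FPKM in KO libraries and 36.1, 31.3, 27.8 and 30.0 in control libraries. The 3 KO libraries with rosiglitazone lie above the 4 control libraries, and the groups overlap with DMSO. The IL4 response was 0.42 ± 0.10, adjusted p = 0.00355 in KO and 0.58 ± 0.10, adjusted p = 9.51e-05 in control cells, and without the 3 libraries of low sum it did not pass in KO cells, at an adjusted p of 0.0706.

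Pgam1 moves the phosphate of 3-phosphoglycerate. For Pgam1, the KO libraries with IL4 gave 120.2, 109, 99.1 and 115 and the control libraries 113, 96.3, 106 and 106 rescaled FPKM. With rosiglitazone, Pgam1 reached 90.6, 85.6 and 109.6 rescaled FPKM in KO macrophages, against 84.0, 83.1, 80.1 and 95.1 in control macrophages. Groups overlap. Pgam1 was at 92.0, 92.4, 84.4 and 104 rescaled FPKM in KO and at 105, 92.4, 82.0 and 87.5 in control macrophages with DMSO. Without treatment, Pgam1 had 105, 99.8, 80.1 and 109 rescaled FPKM in KO libraries and 106, 103, 90.2 and 104 in control libraries. They overlap here as well, and Pgam1 passed in 0 comparisons. Pkm makes pyruvate and ATP. For Pkm, the KO libraries with IL4 gave 247, 208, 238 and 230.0 and the control libraries 252, 235, 237 and 242 rescaled FPKM. With rosiglitazone, Pkm reached 215, 232 and 227 rescaled FPKM in KO macrophages, against 249, 217, 192 and 201 in control macrophages. KO and control cells overlap in both. Pkm was at 231, 211, 223 and 253 rescaled FPKM in KO and at 205, 220.5, 187 and 187 in control macrophages with DMSO. Without treatment, Pkm had 244, 221, 237 and 229 rescaled FPKM in KO libraries and 235, 225, 192 and 219 in control libraries. Pkm passed in 0 comparisons, and these values do not tell its splice forms apart.

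Among enolases, Eno2, the neuronal form, ranged from 7.64 to 12.0 rescaled FPKM (median 9.98). It was higher in KO than in control cells with IL4, at 10.9, 9.92, 8.93 and 9.98 rescaled FPKM in KO and 7.86, 7.80, 7.64 and 8.11 in control libraries, without overlap (0.30 ± 0.07, adjusted p = 0.00438), and it fell with IL4 in control cells (-0.28 ± 0.07, adjusted p = 0.00381). With rosiglitazone it fell in control cells (-0.25 ± 0.07, adjusted p = 0.04), a call lost without rosiglitazone control library 1, 2, 3 or 4 or DMSO control library 1, 2 or 4 (log2 difference -0.27 to -0.20, adjusted p 0.0521 to 0.142). Eno3 was higher in KO than in control cells with IL4, at 2.54, 2.16, 2.46 and 1.98 rescaled FPKM in KO and 1.49, 1.46, 1.84 and 1.48 in control libraries (0.36 ± 0.10, adjusted p = 0.0179), lost without IL4 KO library 1 or IL4 control library 2 or 4 (log2 difference 0.32 to 0.34, adjusted p 0.0502 to 0.0699). Tpi1, triose phosphate isomerase, ranged from 69.2 to 113 rescaled FPKM (median 93.2), and neither it nor Gapdh nor Eno1 passed in any comparison. The sum of Eno1 and Eno1b rose with IL4 by 0.32 ± 0.10 in KO (adjusted p = 0.0215) and by 0.50 ± 0.10 in control cells (adjusted p = 0.000466). With DMSO the sum was higher in KO than in control cells (0.39 ± 0.10, adjusted p = 0.0247). That difference did not pass with IL4, with rosiglitazone or without treatment. The copy was named after its values were seen.

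Ldha, whose first upstream window is shown above, encodes the lactate dehydrogenase subunit that turns pyruvate into lactate. For Ldha, the KO libraries with IL4 gave 165, 149.7, 126 and 151 and the control libraries 269.8, 235, 243 and 263 rescaled FPKM. With rosiglitazone, Ldha reached 112, 104 and 135 rescaled FPKM in KO macrophages, against 203, 190.3, 165 and 209 in control macrophages. KO libraries lie below all control libraries in both, and the 4 control libraries with IL4 lie above all the other 27. Ldha was at 129, 111, 98.4 and 131 rescaled FPKM in KO and at 159, 148, 122 and 138 in control macrophages with DMSO. Without treatment, Ldha had 132, 120.3, 92.9 and 126 rescaled FPKM in KO libraries and 179.6, 184, 130.4 and 160.5 in control libraries. The groups overlap in both of these, without treatment through KO library 1 and control library 3 alone. Ldha was lower in KO than in control cells with IL4 (-0.77 ± 0.12, adjusted p = 5.76e-05, 0.586-fold in rescaled FPKM + 1), with rosiglitazone (-0.71 ± 0.13, adjusted p = 0.000387) and without treatment (-0.47 ± 0.12, adjusted p = 0.0268), the last lost without untreated KO library 3 or untreated control library 1, 2 or 4 (log2 difference -0.47 to -0.36, adjusted p 0.0588 to 0.126). With DMSO the difference was -0.27 ± 0.12, adjusted p = 0.309. IL4 raised Ldha in control cells by 0.64 ± 0.12, adjusted p = 0.000349, and in KO cells the difference of 0.33 ± 0.12, adjusted p = 0.0604 did not pass. With the titled or the running number as a block the difference in KO cells passed (limma, adjusted p = 0.0242 and 0.00108). The difference of the 2 responses, -0.30 ± 0.18, adjusted p = 1, did not pass. Rosiglitazone raised Ldha in control cells by 0.44 ± 0.12, adjusted p = 0.0402, a call lost without rosiglitazone control library 1, 2 or 4 or DMSO control library 2, 3 or 4 (log2 difference 0.37 to 0.46, adjusted p 0.0606 to 0.168). Ldhb, the form that favours pyruvate, ranged from 5.24 to 9.93 rescaled FPKM (median 7.22) and passed in 0 comparisons.

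Monocarboxylate transporters carry lactate across the cell membrane. Slc16a1 encodes MCT1, which works in both directions. For Slc16a1, the KO libraries with IL4 gave 5.94, 7.08, 4.03 and 4.70 and the control libraries 8.76, 9.30, 9.66 and 10.3 rescaled FPKM. Without treatment, Slc16a1 reached 5.13, 4.30, 4.06 and 3.79 rescaled FPKM in KO macrophages, against 4.74, 4.56, 4.83 and 4.96 in control macrophages. The 4 control libraries with IL4 lie above all the other 27, and the KO libraries with IL4 run from within to above the untreated range. Slc16a1 was at 5.39, 4.39 and 4.08 rescaled FPKM in KO and at 5.87, 5.42, 5.74 and 4.98 in control macrophages with rosiglitazone. With DMSO, Slc16a1 had 5.54, 5.44, 3.86 and 3.90 rescaled FPKM in KO libraries and 5.12, 4.90, 4.63 and 4.49 in control libraries. KO and control cells overlap in all treatments but IL4. IL4 raised Slc16a1 in control cells by 0.86 ± 0.12, adjusted p = 2.1e-06, 1.82-fold in rescaled FPKM + 1, against 0.26 ± 0.12, adjusted p = 0.124 in KO cells. KO cells with IL4 had less Slc16a1 than control cells with IL4 (-0.73 ± 0.12, adjusted p = 4.56e-05). The difference between the IL4 responses was -0.60 ± 0.16, adjusted p = 0.112, which did not pass. With the titled or the running number as a block this difference passed (limma, adjusted p = 0.0197 and 0.00111). Slc16a3, MCT4, the lactate exporter of glycolytic cells, ranged from 5.04 to 13.2 rescaled FPKM (median 8.87) and passed in 0 comparisons, with log2 differences between KO and control cells of 0.38 ± 0.18 with IL4, 0.41 ± 0.19 with rosiglitazone, 0.44 ± 0.18 with DMSO and 0.51 ± 0.18 without treatment.

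**Figure D5:**
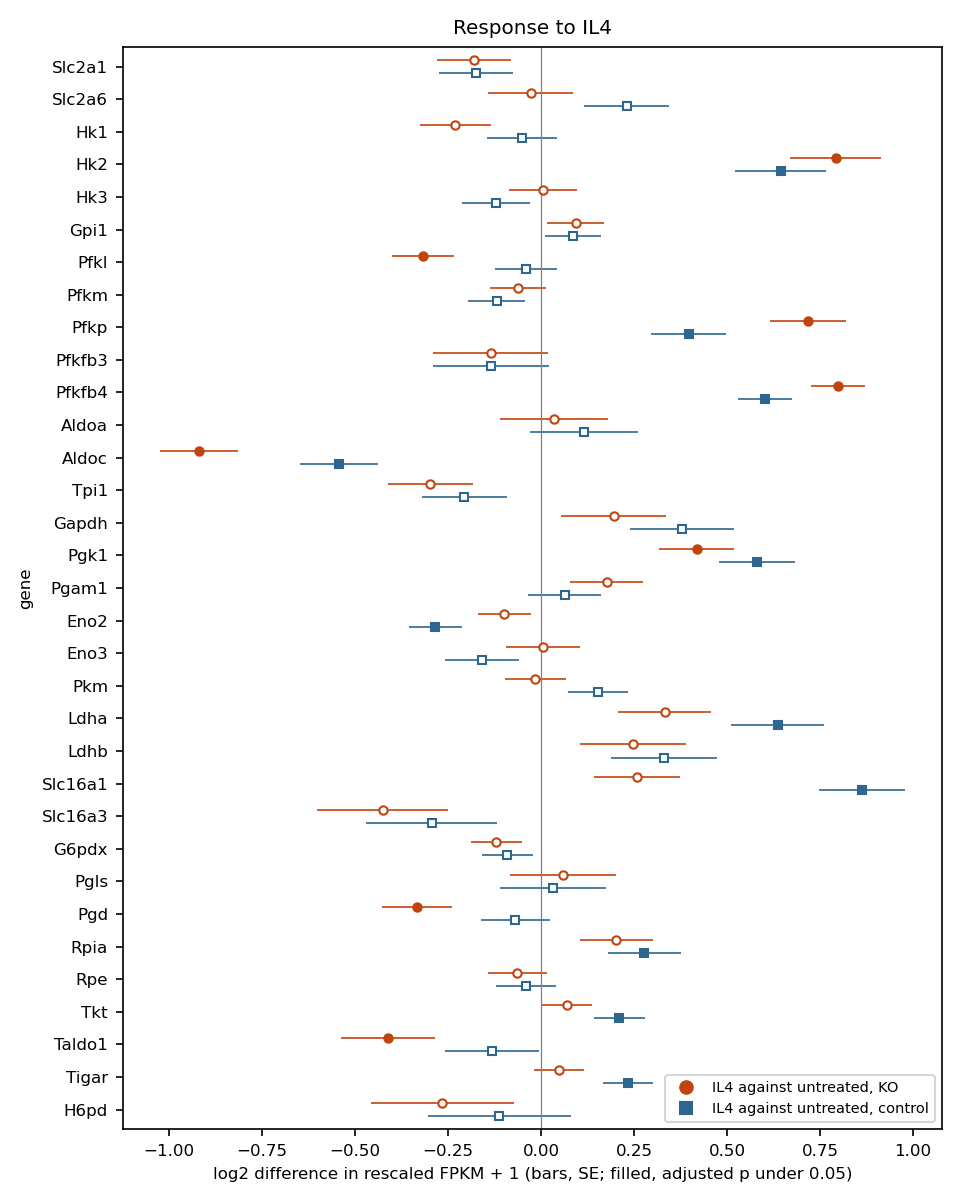
Points give the log2 difference of IL4 minus untreated cells in rescaled FPKM + 1 for each gene, in KO cells (orange circles) above control cells (blue squares), with bars for the SE. Filled points passed at an adjusted p under 0.05, and Eno1 is left out. Hk2, Pfkp, Pfkfb4 and Pgk1 are filled at the right and Aldoc at the left in both genotypes, and Slc16a1 reaches 0.86 in control and 0.26 in KO cells.

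The oxidative branch of the pentose phosphate pathway makes NADPH. G6pdx, its first enzyme, ranged from 41.0 to 55.7 rescaled FPKM (median 48.5), Pgls, the lactonase, from 19.9 to 34.2 rescaled FPKM (median 27.5) and H6pd, the enzyme of the endoplasmic reticulum, from 4.42 to 12.3 rescaled FPKM (median 6.34), and each passed in 0 comparisons. Pgd, which makes ribulose 5-phosphate, fell with IL4 in KO cells, at 50.8, 52.3, 61.9 and 58.9 rescaled FPKM with IL4 against 65.0, 73.4, 71.3 and 72.9 untreated (-0.33 ± 0.09, adjusted p = 0.0109). These libraries do not overlap. Without the 3 libraries of low sum the log2 difference was -0.30 and did not pass (adjusted p = 0.106). Control cells had 61.0 ± 0.899 rescaled FPKM with IL4 and 64.2 ± 5.22 untreated (SD, n = 4 each).

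In the non-oxidative branch, transaldolase and transketolase were lower in KO than in control cells with IL4 and with rosiglitazone. For Taldo1, the KO libraries with IL4 gave 147, 149.8, 142 and 174 and the control libraries 251, 223, 247 and 234 rescaled FPKM. With rosiglitazone, Taldo1 reached 189, 181 and 246 rescaled FPKM in KO macrophages, against 293, 308, 249.6 and 284 in control macrophages. KO libraries lie below all control libraries in both. Taldo1 was at 155, 179.5, 167 and 232 rescaled FPKM in KO and at 236, 241, 187 and 195 in control macrophages with DMSO. Without treatment, Taldo1 had 201, 231, 160.3 and 232 rescaled FPKM in KO libraries and 264, 292, 236 and 256 in control libraries. The groups overlap with DMSO, and without treatment the KO libraries lie below all control libraries. The log2 difference between KO and control cells was -0.64 ± 0.13, adjusted p = 0.000803 with IL4 and -0.47 ± 0.14, adjusted p = 0.0204 with rosiglitazone, the second lost without rosiglitazone KO library 1 or 2 or rosiglitazone control library 2 (log2 difference -0.43 to -0.39, adjusted p 0.0665 to 0.111). It did not pass with DMSO (-0.24 ± 0.13, adjusted p = 0.422) or without treatment (-0.36 ± 0.13, adjusted p = 0.123). IL4 lowered Taldo1 in KO cells (-0.41 ± 0.13, adjusted p = 0.0205), lost without IL4 KO library 1 or 3 or untreated KO library 2 or 4 (log2 difference -0.39 to -0.35, adjusted p 0.0527 to 0.0817), against -0.13 ± 0.13, adjusted p = 0.524 in control cells. The difference of the IL4 responses, -0.28 ± 0.18, adjusted p = 1, did not pass.

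Tkt, transketolase, had 88.0 ± 3.11 rescaled FPKM in KO and 107 ± 2.89 in control cells with IL4 (SD, n = 4 each), without overlap (-0.28 ± 0.07, adjusted p = 0.00635). With rosiglitazone it had 69.8, 73.5 and 78.5 rescaled FPKM in KO and 96.9, 92.4, 84.8 and 87.7 in control cells (-0.29 ± 0.07, adjusted p = 0.00906), lost without rosiglitazone KO library 1 (log2 difference -0.25, adjusted p 0.0678). Tkt rose with IL4 in control cells (0.21 ± 0.07, adjusted p = 0.0268), lost without IL4 control library 1 or 3 or untreated control library 3 or 4 (log2 difference 0.18 to 0.21, adjusted p 0.0516 to 0.0886). Rpia, which makes ribose 5-phosphate, also rose with IL4 in control cells, to 7.55 ± 0.606 rescaled FPKM against 6.05 ± 0.305 untreated (SD, n = 4 each, 0.28 ± 0.10, adjusted p = 0.0401), lost without IL4 control library 1, 3 or 4 or untreated control library 1, 3 or 4 (log2 difference 0.25 to 0.28, adjusted p 0.0725 to 0.102). Tigar rose there too, at 2.33 ± 0.180 rescaled FPKM with IL4 against 1.83 ± 0.190 untreated (SD, n = 4 each, 0.23 ± 0.07, adjusted p = 0.0118), lost without untreated control library 2 (log2 difference 0.20, adjusted p 0.0507). Rpe, the epimerase, ranged from 11.0 to 15.7 rescaled FPKM (median 12.6) and passed in 0 comparisons.

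Genes around these routes were followed in 3 further lists. Of 41 tested genes of other sugar pathways, IL4 raised 4 and lowered 9 in KO and raised 9 and lowered 9 in control cells. Of all genes it raised 10.1% and lowered 9.38% in KO, and raised 11.9% and lowered 11.1% in control cells. Prps1, which turns ribose 5-phosphate into the precursor of nucleotides, had 3.51 ± 0.507 rescaled FPKM in KO and 11.0 ± 2.25 in control cells with IL4, against 3.09 ± 0.568 in KO and 3.20 ± 0.337 in control cells without treatment (SD, n = 4 each). Its IL4 responses differed by -1.36 ± 0.15 (KO minus control, adjusted p = 2.26e-06). Gpd1, which diverts triose phosphate to glycerol 3-phosphate, rose with IL4 by 1.28 ± 0.09 in control cells, and the responses differed by -1.06 ± 0.13. Gbe1, which branches glycogen, fell with IL4, with log2 differences of -0.42 in KO and of -0.40 in control cells, and Gyg, which starts the polymer, fell as well. Medians of this list were -0.05 for IL4 in both genotypes.

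Of 21 tested regulators of glycolysis, 3 were higher and 3 lower in KO than in control cells with IL4, 1 and 3 with rosiglitazone, 0 and 1 with DMSO and 0 and 1 without treatment. Of all genes, 5.06% were higher and 5.77% lower with IL4, and 5.05% and 6.68% with rosiglitazone. The shares were 1.34% and 2.2% with DMSO and 1.76% and 2.58% without treatment, and they stand beside the HIF1 targets below too. Epas1, which encodes HIF2α, was lower in KO than in control cells in all 4, with log2 differences of -0.75 ± 0.14, -0.85 ± 0.16, -0.54 ± 0.14 and -0.51 ± 0.14 with IL4, rosiglitazone, DMSO and no treatment, in that order. Vhl, which marks HIF1α and HIF2α for degradation, was higher in KO cells with IL4 (0.43 ± 0.06), and so was Nfe2l2 (0.39 ± 0.09), which encodes the antioxidant factor NRF2. The IL4 responses of Vhl differed by 0.37 ± 0.09 (KO minus control, limma, adjusted p = 0.0304). Prkaa1, a catalytic subunit of the energy sensor AMPK, was lower (-0.38 ± 0.08). Hif1a rose with IL4 in KO cells (0.30 ± 0.10). Myc, an activator of Ldha and hexokinase genes, rose with IL4 by 0.51 ± 0.12 in KO and by 0.98 ± 0.12 in control cells. Its IL4 responses differed by -0.46 ± 0.17 (KO minus control, limma, adjusted p = 0.575), which did not pass. Of 17 tested further targets of HIF1, 4 were higher and 1 lower in KO than in control cells with IL4, 2 and 1 with rosiglitazone, 4 and 1 with DMSO, and 1 and 1 without treatment. The lower gene was Pdk1 each time (-0.88 ± 0.12, -0.82 ± 0.13, -0.48 ± 0.12 and -0.60 ± 0.12 in the same order), a kinase that keeps pyruvate out of mitochondria, and P4ha2, a collagen prolyl hydroxylase, was higher in all 4 (0.54 ± 0.12, 0.87 ± 0.13, 0.69 ± 0.12 and 0.50 ± 0.12, again in that order). Of these 17 targets, IL4 raised 2 and lowered 5 in KO and raised 2 and lowered 4 in control cells, beside the shares given for IL4 above. Ndrg1, a stress-response gene, fell with IL4 (-0.96 ± 0.07 in KO and -1.35 ± 0.07 in control cells). Mxi1 and Bnip3 fell too, and Bhlhe40 and P4ha1 rose, each in both genotypes.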

How the data were processed

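RNA of 31 macrophage libraries in 8 groups was made with a stranded total RNA kit, per the labels' protocols. The authors deposited FPKM values per gene symbol. Per the submitters' processing notes, the authors used TopHat2, featureCounts and edgeR with genome build mm9, without versions or roles. The sources used here give no read counts, so depth is unknown and no interval for counting error was made. The table held 24302 symbols, 25 of them dates, which were left out (0.136% of the FPKM).

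From the deposited FPKM, libraries were rescaled by a median ratio, with the geometric mean of each gene as reference and 10215 genes above 0 everywhere. The 10327 genes that reached 1 FPKM in 3 or more libraries entered a limma model (limma 3.58.1, R 4.3.3) of log2(rescaled FPKM + 1). It had a mean for each group, all 31 libraries and a variance trend, with two-sided p and Benjamini-Hochberg adjustment over all genes. The p-values measure the spread between these libraries. The script was tested on simulated data. The members and the gene lists were chosen with earlier results of these data known. Members that passed with an absolute log2 difference of at least 0.5, or were among the 6 most abundant, were given library by library. Of the other lists at most 4 genes for each comparison, those with the smallest p, were named. Alternatives were the deposited scale, equal upper quartiles, a pseudocount of 0.1, no filter on low values, only the libraries compared, 2 replicate blocks, values listed at 0 as missing, and leaving out libraries. Upstream sequences are from RefSeq (GRCm38.p6) and shared windows from GENCODE M21.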

Additional observations from a re-analysis of the deposited data

Results flagged for a closer look

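In 238 member and group pairs with 4 libraries, 7 had a highest or lowest library whose gap to its nearest neighbour took more of the group's range than Dixon's critical value allows, where chance gives about 1 in 20. Library 3 of untreated KO cells had 12.17 rescaled FPKM of Hk2, against 8.35 to 9.00 in the others, and 5.358 of Ldhb, against 7.45 to 7.70. In untreated control cells, library 3 had 90.21 of Pgam1, against 103.1 to 105.6 in the others. Control library 3 with DMSO had 16.15 of Pfkp, against 19.8 to 20.5. Control library 3 with IL4 had 1.84 of Eno3, against 1.46 to 1.49, control library 1 had 1.309 of Pfkm, against 0.996 to 1.01, and control library 4 had 59.65 of Pgd, against 61.43 to 61.46. Thus 5 of the 7 were libraries titled 3. No explanation was tested for these values.

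The rosiglitazone response of Slc2a6 differed between KO and control cells by 0.95 on the log2 scale, by the limma test of the difference of the responses.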

How the results depend on the processing

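Of the 50 passing gene values, 50 passed with a pseudocount of 0.1, with either replicate block and with values at 0 as missing, 47 with equal upper quartiles, 46 without a filter, 44 without the 3 libraries of low sum, 39 with only the libraries compared and 13 on the deposited scale, and none changed sign. When single libraries were left out, 348 of 399 values passed. The cause of the losses was not tested.

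Counts of passing members for KO against control cells, on the deposited scale, were 2 with IL4 (10 after rescaling), 3 with rosiglitazone (8), 0 with DMSO (3) and 1 untreated (5). For IL4 they were 4 in KO (8) and 2 in control cells (11), for rosiglitazone in control cells 1 (4) and for the difference of the rosiglitazone responses 0 (1). With only the libraries compared, 2 members passed for rosiglitazone in control cells and 2 for untreated KO against control cells. Without the libraries of low sum, 5 passed for IL4 in KO cells and 2 for untreated KO against control cells. With only the libraries compared and without the libraries of low sum, shares of all genes are not given here.

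Titled replicate numbers did not pair the libraries by the rule used (34 of 45 same-numbered pairs correlated above 0.1, and 21 of 31 libraries correlated best with their own number), and the running numbers in the descriptions came closer (42 of 45, and 28 of 31). With the titled number as a replicate block the count was 7 for rosiglitazone in control cells (6.53% of all genes), 2 for the difference of the rosiglitazone responses (1.36%) and 1 for that of the IL4 responses (0.988%). The block by running number gave 17 for IL4 in KO (35.3%) and 19 in control cells (37.6%), 12 for rosiglitazone in control cells (13.1%), 1 for DMSO in each genotype (1.05% in KO and 0.504% in control cells), 4 for the difference of the rosiglitazone (3.09%) and 3 for that of the IL4 responses (2.13%). Passing with both blocks, though not without one, were Slc16a1 for the difference of the IL4 responses, Aldoc for that of the rosiglitazone responses, Hk1, Tpi1, Ldha and Slc16a3 for IL4 in KO and Gapdh in control cells, Pfkp, Tkt and Taldo1 for rosiglitazone in control cells, and Pfkp for KO against control cells with DMSO (adjusted p 0.0192 to 0.0479 by titled and 0.000601 to 0.0157 by running number).

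Without single libraries, the counts for KO against control cells ranged from 8 to 10 with IL4, 6 to 10 with rosiglitazone, 3 to 4 with DMSO and 3 to 4 untreated. For IL4 they ranged from 7 to 10 in KO and 9 to 12 in control cells, for rosiglitazone from 0 to 0 in KO and 2 to 4 in control cells, and for DMSO from 0 to 0 in both. The difference of the rosiglitazone responses gave 1 to 2 and that of the IL4 responses 0 to 1. Shares of all genes without single libraries are not given, here or above. With FPKM only, depth is unknown.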

Other observations

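Egln3 and Myc passed for rosiglitazone in control cells. Egln3, an oxygen-sensing hydroxylase that marks HIF subunits, rose by 0.73 ± 0.13 on the log2 scale (limma, adjusted p = 0.000632), and Myc rose by 0.55 ± 0.12 (adjusted p = 0.00587). The Egln3 response differed between KO and control cells by -0.84 ± 0.19 (KO minus control, adjusted p = 0.0262). For Myc the log2 difference from DMSO in KO cells was 0.39 ± 0.13, which did not pass. Its responses differed by -0.17 ± 0.18 (KO minus control), which did not pass either. Of 21 tested regulators, 2 were higher and 0 lower with rosiglitazone in control cells, where 3.11% of all genes were higher and 1.36% lower. Bhlhe40, a transcription factor that hypoxia induces, rose with IL4 by 0.89 ± 0.11 in KO and by 0.68 ± 0.11 in control cells. Slc16a10, a transporter of aromatic amino acids in the monocarboxylate family, fell with IL4 in KO cells, with a log2 difference of -0.68 ± 0.11.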
